A study of Mus musculus with 2 samples.

Results

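The genes for CDK inhibitors, the proteins that hold cyclin-dependent kinases (CDKs) in check, were followed in cultured primary mouse brain pericytes (PCs). All 7 members, chosen by symbol, were found among the 31053 genes listed. *Cdkn2a*, *Cdkn2b*, *Cdkn2c* and *Cdkn2d* are the 4 INK4 genes, and *Cdkn1a*, *Cdkn1b* and *Cdkn1c* are the 3 CIP/KIP genes. There were 2 single cell libraries, PC5 from cells at passage 5 and PC20 from cells at passage 20. All cells came from brains of female wild type C57BL/6N mice aged 6 to 8 weeks, with 6 mice pooled for an isolation. Both were grown on collagen, in an endothelial medium for the first 2 passages and in Pericyte Medium afterwards. By the study's methods each passage had its own isolation, while the deposited design text speaks of 1, so passage and isolation cannot be told apart. With 1 library per passage no test between passages was possible, and no p-value is given.

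The libraries count unique molecular identifiers (UMIs, tags of single captured RNA molecules) at the 3′ end of transcripts. Barcodes needed over 1000 detected genes and less than 20% of UMIs from mitochondrial genes to be kept. PC5 then held 9950 cells with a median of 21700 UMIs and PC20 held 4749 cells with a median of 33424. Levels are CPM, a gene's UMIs per 1000000 UMIs summed over the cells of a class. The brackets hold exact 95% intervals, which cover counting error only and not the spread between cultures. Since transcripts are counted at 1 end and capture differs between genes, levels are compared within a gene and not between genes. Cells with a UMI of *Mki67* or *Top2a*, proteins made by dividing cells, made up 45.0% of PC5 and 72.2% of PC20. These cells, called dividing-marker cells, were deeper, with medians of 25567 against 19195 UMIs in PC5 and 37657.5 against 26024 in PC20. Shares of cells were therefore also counted after thinning, in which each cell was cut at random to 10500 UMIs. Thinning left 8847 PC5 and 4474 PC20 cells, of which 35.4% and 58.6% had a *Mki67* or *Top2a* UMI.

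INK4 proteins bind CDK4 and CDK6 and keep them from their D-type cyclins, so that the retinoblastoma protein RB stays active and holds back E2F factors and entry into S phase. CIP/KIP proteins bind cyclin and CDK complexes, above all those of CDK2. *Cdkn2a* also encodes p19Arf, which stabilises p53 by binding MDM2, and *Cdkn1a* is a classical target of p53. In mouse cells put into culture, products of *Cdkn2a* and *Cdkn2b* are known to accumulate with serial passage, and their loss is a common way in which such cultures keep dividing.

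The promoters of the genes with the largest passage differences, and of *Cdkn1a* as the p53 target, are shown from the RefSeq table for GRCm38.p6. Each runs 5′ to 3′ on the gene's strand, from 250 bases before a transcript start to 50 bases after it. The table held 9 promoters for 6 of the 7 members, with no entry for *Cdkn1c*. The first *Cdkn2a* promoter, chr4:89294570-89294869 on the minus strand, is the upstream one and lies at the start of the longer transcript. The second, chr4:89282143-89282442 on the minus strand, lies at the start of the shorter one. The *Cdkn2b* promoter is chr4:89310983-89311282 on the minus strand, and the *Cdkn1a* promoter is the upstream one of 2, chr17:29090729-29091028 on the plus strand. Capitals mark an E2F word in the first, a cyclic AMP response element in *Cdkn2b* and a match to the p53 half-site search in *Cdkn1a*.
Cdkn2a upstream: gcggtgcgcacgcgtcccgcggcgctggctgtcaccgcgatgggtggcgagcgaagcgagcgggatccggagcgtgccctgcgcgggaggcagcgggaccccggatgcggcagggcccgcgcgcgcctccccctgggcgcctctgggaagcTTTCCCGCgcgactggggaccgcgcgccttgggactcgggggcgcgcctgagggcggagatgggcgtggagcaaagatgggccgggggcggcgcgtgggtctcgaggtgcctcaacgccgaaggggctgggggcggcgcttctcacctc
Cdkn2a downstream: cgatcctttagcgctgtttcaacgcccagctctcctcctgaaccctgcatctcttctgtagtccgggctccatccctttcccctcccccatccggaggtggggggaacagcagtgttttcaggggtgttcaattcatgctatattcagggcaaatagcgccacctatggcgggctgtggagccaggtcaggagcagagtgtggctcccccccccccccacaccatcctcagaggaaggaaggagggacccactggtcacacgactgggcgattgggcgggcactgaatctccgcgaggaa
Cdkn2b: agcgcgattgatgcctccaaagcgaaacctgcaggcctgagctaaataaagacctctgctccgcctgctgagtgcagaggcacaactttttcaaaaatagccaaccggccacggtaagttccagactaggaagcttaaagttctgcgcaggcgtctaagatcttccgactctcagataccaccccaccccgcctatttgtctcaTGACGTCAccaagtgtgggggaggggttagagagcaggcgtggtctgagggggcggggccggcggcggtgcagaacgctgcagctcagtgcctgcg
Cdkn1a upstream: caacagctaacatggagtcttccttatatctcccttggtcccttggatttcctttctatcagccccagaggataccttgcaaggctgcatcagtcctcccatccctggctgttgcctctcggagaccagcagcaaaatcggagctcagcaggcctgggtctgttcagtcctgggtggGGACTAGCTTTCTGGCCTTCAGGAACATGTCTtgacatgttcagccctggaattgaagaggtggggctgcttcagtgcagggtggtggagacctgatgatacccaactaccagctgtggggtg

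The motifs were searched on both strands with the sequences in view. An E2F word (TTTCCCGC, TTTCGCGC, TTTGCCGC or TTTGGCGC) was in 2.26% of the 32807 promoters of the table and sat at bases 152 to 159 of the upstream *Cdkn2a* promoter. The element TGACGTCA was in 1.79% of promoters and sat at bases 205 to 212 of that of *Cdkn2b*. A match to a p53 response element, here 2 half-sites with at most 13 bases between them, was in 0.0732% of promoters. It sat at bases 178 to 209 of the upstream *Cdkn1a* promoter. The bases tgacatgttc directly after it are not in the match, so the marked borders are those of the search and not of a known site. The GC box GGGCGG was in 35.6% of all promoters and in all members' promoters but the downstream one of *Cdkn2c* and the upstream one of *Cdkn1a*. The FOXO word GTAAACA, in 3.65% of promoters, was in none of the 9. The 2 *Cdkn2a* promoters differed in CpG number, with 45 in the upstream one and 12 in the downstream one, against a median of 7 over all promoters. A matched word is a description of the sequence and not a site shown to be bound.

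The 7 genes divided by passage. *Cdkn2a*, *Cdkn2b* and *Cdkn1a* were at least 1.5-fold higher in PC5, where 27.8% of the 10504 expressed genes, those detected in 10% or more of PC5 or of PC20 cells, were so. *Cdkn2d*, *Cdkn1b* and *Cdkn1c* were at least 1.5-fold higher in PC20, where 30.1% of expressed genes were so. *Cdkn2c* differed by less than that. A fold of this size was thus common between these libraries, and counts of 3 among 7 genes are not read as particular to the members. The median log2 ratio of PC5 over PC20 was -0.26 over the members and -0.03 over all expressed genes. *Cdkn2a* and *Cdkn2b* passed the minimum through PC5 alone and so had to differ, while the other 5 passed in both libraries.

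**Figure D1:**
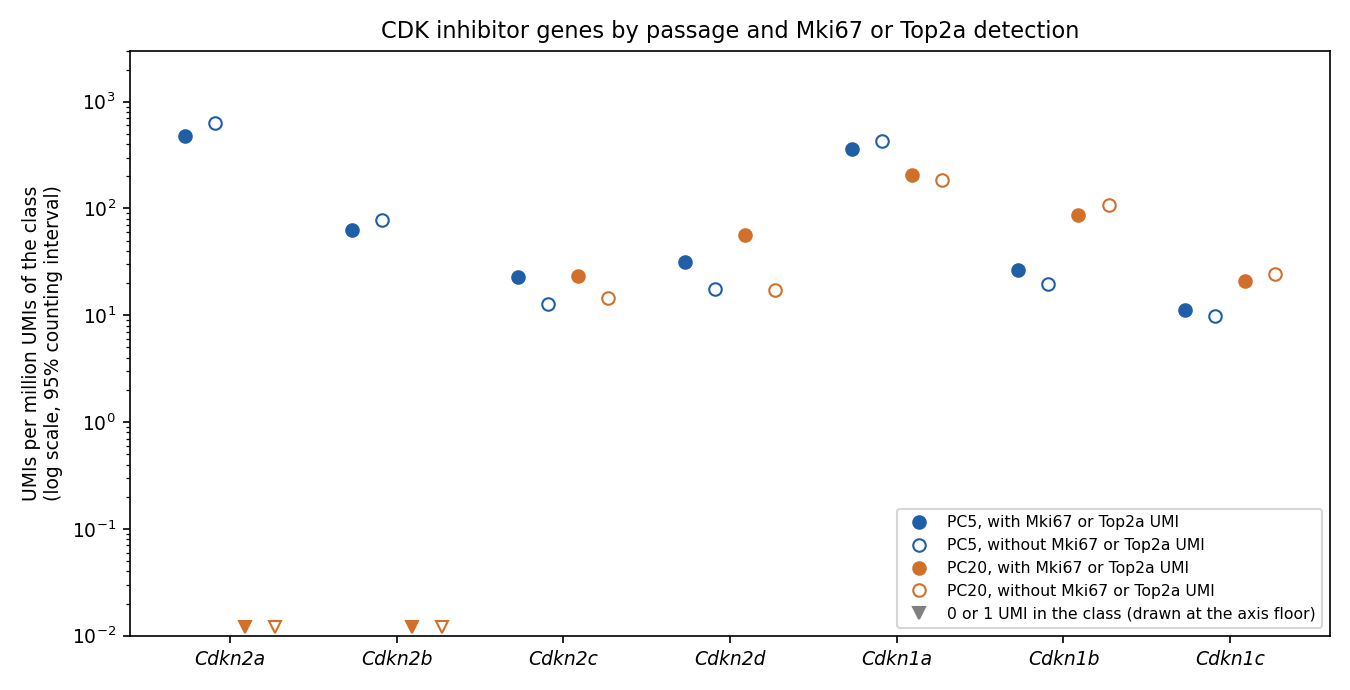
CPM (log scale) of the 7 CDK inhibitor genes in cells with (filled) and without (open) a *Mki67* or *Top2a* UMI in PC5 (blue) and PC20 (orange), with 95% counting intervals. *Cdkn2a* and *Cdkn2b* stand at 481 and 62.6 in the filled PC5 class and at 1 and 0 UMIs, drawn as triangles, in PC20, while *Cdkn1b* lies between 86.1 and 108 in PC20 and between 19.6 and 26.7 in PC5.

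The products of *Cdkn2a* are p16INK4a, a CDK4 and CDK6 inhibitor, and p19Arf. In PC5 it had 124034 UMIs, a level of 556 CPM (553–559), and 98.4% of cells held at least 1. In PC20 it had 1 UMI among 191122251, a level of 0.00523 CPM (0.000132–0.0292). The log2 ratio of PC5 over PC20 was 16.70 (14.22–22.00), with the wide interval of a single UMI. That UMI was in a cell of 92139 UMIs with a *Mki67* or *Top2a* UMI, whose barcode was also among the PC5 cells. The libraries shared 20 barcodes, all in kept cells. Without these barcodes *Cdkn2a* had 0 UMIs in the remaining 4729 PC20 cells. It was then 35273-fold higher in PC5 when set against a floor of 3 UMIs in the library, with an exact lower limit of 14.81 for the log2 ratio. Whether this UMI came from the other library was not tested.

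In PC5 *Cdkn2a* was present in dividing-marker cells and the others alike. Its level was 481 CPM (477–485) in cells with a *Mki67* or *Top2a* UMI and 638 (633–642) in cells without, a log2 ratio of -0.41 (-0.42 to -0.39). In thinned cells it was found in 95.9% and 97.0% of the classes. At this equal depth a PC5 cell had a median of 5 *Cdkn2a* UMIs, with 1 at the 5th percentile, 15 at the 95th and a highest value of 61. The variance over cells was 3.96 times the mean, against a median of 1.08 over expressed genes of any level. Genes with a mean near that of *Cdkn2a* (6.20 UMIs) were not compared, so this value is not read as particular to it. Cells at 0 made up 3.39%, where a Poisson spread around the mean would give 0.204%. Those 300 thinned cells had 33.0 CPM (upper limit 40.0) of *Cdkn2b*, against 75.0 CPM in the 8547 cells with *Cdkn2a*. Their level of *Cdkn1a* was 363 CPM (342–385) against 404, and 42.7% of them had a *Mki67* or *Top2a* UMI against 35.1%. The PC5 cells without detected *Cdkn2a* were thus also lower in its neighbour gene, by more than counting error.

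*Cdkn2b*, which encodes the CDK4 and CDK6 inhibitor p15INK4b, followed the same pattern at the passages. It had 15615 UMIs in PC5, a level of 70.0 CPM (68.9–71.1) in 67.9% of cells, and 0 UMIs in PC20. A count of 0 of 4749 cells allows a share of cells with a UMI of up to 0.0632%. *Cdkn2b* was 4460-fold higher in PC5 when set against a floor of 3 UMIs in the PC20 library. The exact lower limit of its log2 ratio was 11.82. Within PC5 it was at 62.6 CPM (61.2–64.1) in cells with a *Mki67* or *Top2a* UMI and at 78.0 (76.3–79.7) in cells without. At equal depth 48.7% of PC5 cells held a UMI and the variance was 1.33 times the mean. Of 10 genes of other lineages, such as globin and albumin genes, the most widely seen was in 0.121% of PC5 and 0.147% of PC20 cells. Detection of *Cdkn2a* and *Cdkn2b* in PC20 was not wider than that. The background from free RNA was not estimated.

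Both genes lie on the minus strand of chromosome 4 in GRCm38, *Cdkn2a* at chr4:89274471-89294653 and *Cdkn2b* at chr4:89306299-89311039, with 11645 bases between them. Of the genes on their flanks, *Mtap*, a methionine salvage enzyme gene 93389 bases from *Cdkn2a*, was at 72.2 CPM in PC5 against 36.1 CPM in PC20, with a log2 ratio of 1.00 (0.96–1.04). *Dmrta1*, a transcription factor gene 368396 bases beyond *Cdkn2b*, had 11 UMIs in PC5 and 2579 in PC20. The lincRNA gene *Gm12606* lies 1067 bases beyond the 3′ end of *Cdkn2a* on the same strand and had 733 UMIs in PC5 and 0 in PC20. Reads past the annotated end of *Cdkn2a* would count for it, so its values are uncertain. In PC20 the 3 genes from *Gm12606* to *Cdkn2b* thus held 1 UMI in all, while the nearest expressed genes on both sides were detected.

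**Figure D2:**
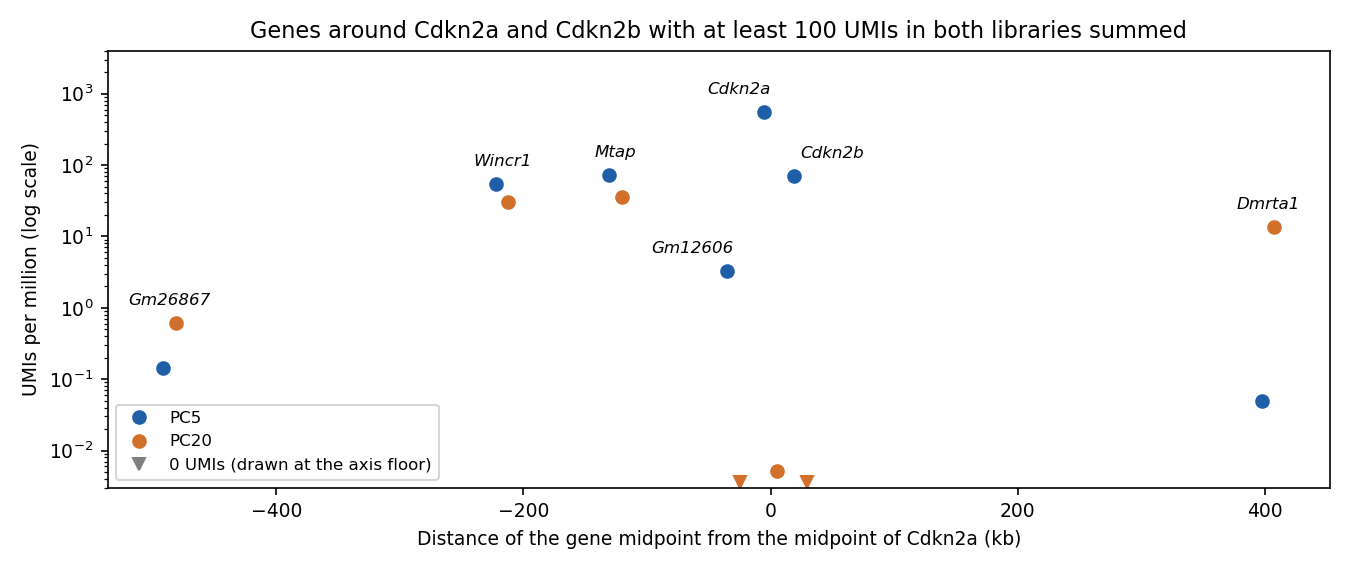
CPM (log scale) of the genes within 500 kb of *Cdkn2a* that had at least 100 UMIs in the libraries summed, by distance from the midpoint of *Cdkn2a* in kb, for PC5 (blue) and PC20 (orange); triangles are genes at 0 UMIs. *Cdkn2a*, *Cdkn2b* and *Gm12606* stand at 556, 70.0 and 3.29 in PC5, and each is at 0 or 1 UMI in PC20. *Mtap* lies at 72.2 and 36.1, and *Dmrta1* is higher in PC20.

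GENCODE lists *Cdkn2a* transcripts of 852 and 895 bases, of which 575 bases, the 3′ part, are shared. The 3′ counts therefore do not separate p16INK4a from p19Arf, and the UMIs above are the sum of both. Regulators of the locus, listed from general knowledge, did not share 1 direction. Of 12 expressed repressor genes, most of them Polycomb genes, *Bmi1* was higher in PC5 (40.9 against 17.1 CPM) and 5 were higher in PC20, among them *Cbx7* (5.26 against 0.525 CPM) and *Ezh2* (95.5 against 45.4 CPM), while 6 differed by less than 1.5-fold. Of 5 activators, the demethylase gene *Kdm6b* was higher in PC5 (74.6 against 30.8 CPM), *Ets2* (37.9 against 3.41 CPM) and *Dmtf1* were higher in PC20, and 2 were under the fold.

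*Cdkn1a* encodes p21, which is induced by p53 and inhibits cyclin E and CDK2. It was at 394 CPM (392–397) in PC5 and 201 (199–203) in PC20, for a log2 ratio of 0.97 (0.96–0.99). The order of the classes was 431 CPM in PC5 cells without a *Mki67* or *Top2a* UMI, 360 in those with 1, 205 in PC20 cells with 1 and 186 in those without, and no intervals overlapped. The passages thus stood apart in both classes, with log2 ratios of 1.22 (1.18–1.25) in cells without and 0.82 (0.79–0.84) in cells with such a UMI. Within a passage the classes differed less and in opposite directions, with log2 ratios of cells with over cells without of -0.26 (-0.28 to -0.24) in PC5 and 0.14 (0.10–0.18) in PC20.

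*Cdkn1a* was detected in 92.8% of PC5 and 66.7% of PC20 cells at equal depth. A PC5 cell had a median of 4 UMIs, a 99th percentile of 15 and a highest value of 45, and a PC20 cell a median of 1, a 99th percentile of 10 and a highest value of 22. The variance was 3.00 times the mean in PC20 and 2.48 times in PC5, and the 10% of cells with the most UMIs held 38.6% of them against 26.5%. Cells at 0 made up 33.3% of PC20 where a Poisson spread would give 14.3%, and 7.18% of PC5 where it would give 1.46%.

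The 10% of cells with the highest share of *Cdkn1a* were described, without a test, by the p53 targets of the same list. In PC20 these 475 cells had 280 CPM of *Mdm2*, the ubiquitin ligase gene that p53 induces, against 114 in the other cells, and 138 against 56.5 of the antiproliferative gene *Btg2*. The stress-response genes *Gadd45a*, at 220 against 258 CPM, and *Plk2*, at 210 against 212 CPM, were not higher in them. In PC5 the 995 cells had 397 against 202 CPM of *Mdm2* and 178 against 80.2 of *Trp53inp1*. Unlike in PC20, they also had more *Gadd45a* (25.2 against 11.5 CPM) and *Plk2* (73.3 against 55.9 CPM). The level of *Trp53* itself was 109 against 106 CPM in PC5 and 105 against 104 in PC20. In PC5 26.9% of the *Cdkn1a*-high cells had a *Mki67* or *Top2a* UMI against 47.0% of the others, with median depths of 17638 and 22196 UMIs, while in PC20 the shares were 69.9% and 72.4%. The PC5 cells high in *Cdkn1a* also had more *Cdkn2a* (836 against 531 CPM) and *Cdkn2b* (108 against 66.6 CPM).

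**Figure D3:**
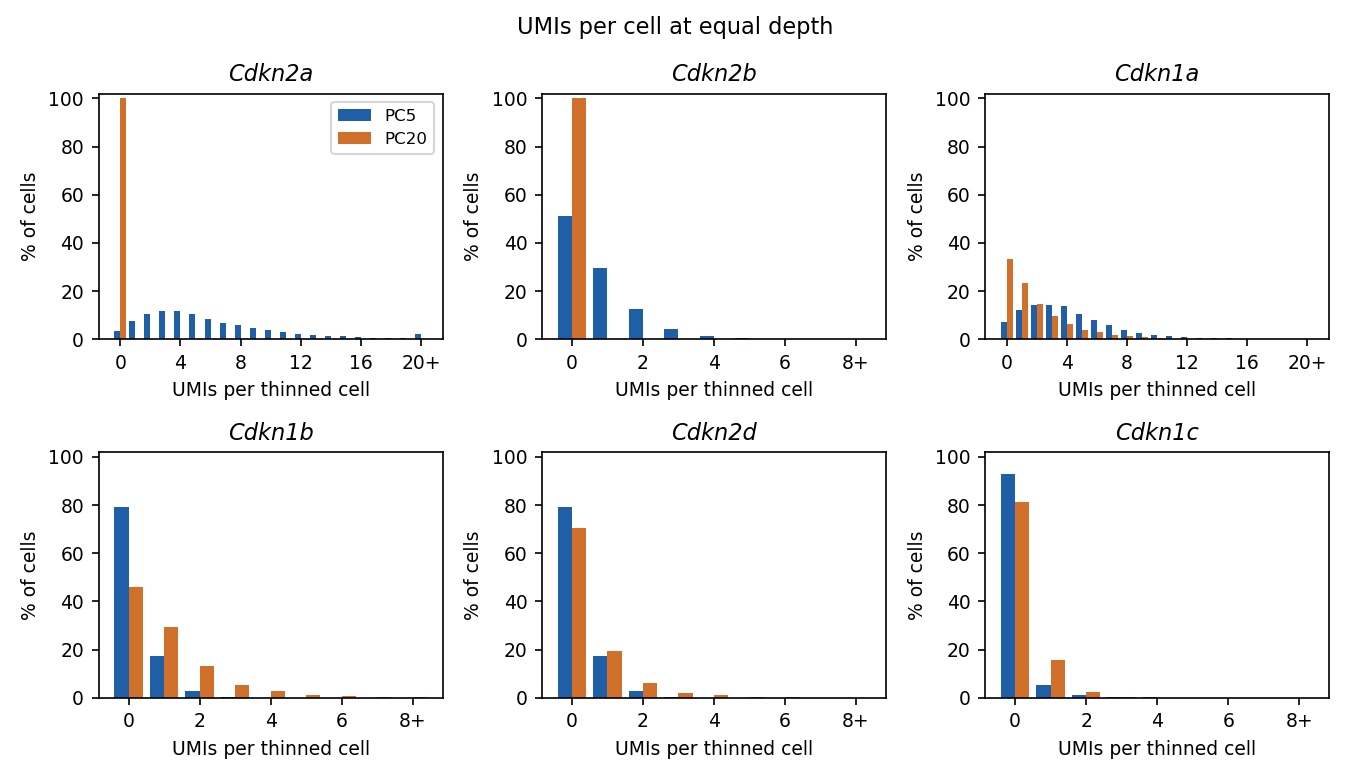
Percent of cells by number of UMIs per cell after thinning to 10500 UMIs, for 6 of the genes in PC5 (blue, 8847 cells) and PC20 (orange, 4474 cells), with the last bar holding all higher values. *Cdkn2a* spreads around a median of 5 in PC5 and is at 0 in all thinned PC20 cells, *Cdkn1a* is at 0 in 7.18% of PC5 and 33.3% of PC20 cells, and *Cdkn1b* is at 0 in 79.3% and 46.1%.

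*Cdkn1b* and *Cdkn1c* were the CIP/KIP genes higher at passage 20. *Cdkn1b*, which encodes p27, an inhibitor of cyclin E and CDK2 known from resting cells, was at 23.3 CPM (22.7–23.9) in PC5 and 90.3 (89.0–91.7) in PC20, a 3.88-fold difference with a log2 ratio of -1.95 (-2.00 to -1.91). The PC20 classes stood at 108 CPM without and 86.1 with a *Mki67* or *Top2a* UMI, and the PC5 classes at 19.6 without and 26.7 with 1. *Cdkn1b* was thus higher in dividing-marker cells at passage 5 and lower in them at passage 20, with log2 ratios of 0.44 (0.36–0.53) and -0.32 (-0.37 to -0.27). At equal depth 20.7% of PC5 and 53.9% of PC20 cells held it.

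The protein p27 is controlled largely by its breakdown, which RNA counts do not show. Of 6 expressed genes for p27 turnover and transcription, *Skp2*, the ubiquitin ligase subunit that marks p27, was higher in PC5 (14.3 against 8.37 CPM), and the other 5 differed by less than 1.5-fold. *Cdkn1c*, an imprinted gene that encodes p57, was at 10.5 CPM (10.1–11.0) in PC5 and 21.7 (21.1–22.4) in PC20, a 2.06-fold difference. It was concentrated in few PC5 cells. At equal depth 7.14% of PC5 cells held a UMI, the variance was 2.58 times the mean and the highest cell had 14 UMIs, whereas 18.8% of PC20 cells held 1 with a variance of 1.23 times the mean and a highest value of 5. The classes followed the order 24.4 and 21.1 CPM in PC20 cells without and with a *Mki67* or *Top2a* UMI, then 11.3 and 9.78 in PC5 cells with and without 1, and no intervals overlapped. At equal depth the log2 ratio of cells with over cells without was 0.12 (-0.07 to 0.30) in PC5 and -0.12 (-0.30 to 0.06) in PC20, so the order within a passage was then within counting error.

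*Cdkn2c* and *Cdkn2d*, which encode the INK4 proteins p18 and p19INK4d, were the members that stood higher in dividing-marker cells of both libraries. Both were at least 1.5-fold higher in cells with a *Mki67* or *Top2a* UMI in each library, and 0 members were lower by that fold. In thinned cells *Cdkn2d* alone passed in PC20, with *Cdkn2c* at a log2 ratio of 0.58 (0.39–0.77) there, just under the fold. Of the expressed genes 6.40% were so much higher and 1.30% lower in PC5, and 6.04% and 0.991% in PC20. All 7 members passed the detection minimum in PC5, *Cdkn1c* through the class with such a UMI alone, and 5 passed in PC20. The median log2 ratio of the members was 0.20 in PC5 and 0.14 in PC20, against 0.06 and 0.00 over all expressed genes.

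For *Cdkn2d* the classes stood at 56.5 CPM (55.4–57.7) in PC20 cells with and 17.2 (15.9–18.5) in PC20 cells without a *Mki67* or *Top2a* UMI, and at 31.7 (30.7–32.7) and 17.7 (16.9–18.5) in PC5. The classes without such a UMI did not differ beyond counting error. The log2 ratio of cells with over cells without was 1.72 (1.60–1.84) in PC20, a 3.29-fold difference, and 0.84 (0.76–0.92) in PC5. Over all cells *Cdkn2d* was 1.95-fold higher in PC20 (48.8 against 25.0 CPM). In cells with a *Mki67* or *Top2a* UMI the log2 ratio of PC5 over PC20 was -0.83 (-0.89 to -0.78), and in cells without it was 0.05 (-0.08 to 0.18). The passage difference of *Cdkn2d* was thus seen in dividing-marker cells and was not detectable in the others, and PC20 held a larger share of dividing-marker cells.

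*Cdkn2c* was at 17.9 CPM (17.3–18.4) in PC5 and 21.5 (20.8–22.2) in PC20. Its classes stood at 22.7 (21.8–23.6) and 23.2 (22.5–24.0) in PC5 and PC20 cells with a *Mki67* or *Top2a* UMI, and at 12.7 (12.0–13.4) and 14.4 (13.2–15.7) in cells without. The log2 ratio of PC5 over PC20 was -0.03 (-0.11 to 0.04) in cells with and -0.18 (-0.33 to -0.04) in cells without such a UMI. The passages thus differed by less than the classes did. The log2 ratio of cells with over cells without was 0.84 (0.74–0.94) in PC5 and 0.69 (0.56–0.82) in PC20.

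The level of both genes was higher with the number of *Mki67* and *Top2a* UMIs per thinned cell. *Cdkn2d* in PC20 was at 19.6 CPM in cells with 0, 21.7 with 1, 38.3 with 2 to 5 and 103 with 6 or more. In PC5 the same bins held 17.6, 21.1, 37.0 and 59.5 CPM. The passages were thus close up to 5 UMIs and apart in the bin of 6 or more. *Cdkn2c* went from 13.5 to 42.6 CPM in PC5 and from 16.8 to 33.5 in PC20 between the lowest and the highest bin. *Cdkn2a* in PC5 went from 637 to 485 CPM, and *Cdkn1b* from 19.9 to 36.8 in PC5 and from 111 to 93.1 in PC20.

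**Figure D4:**
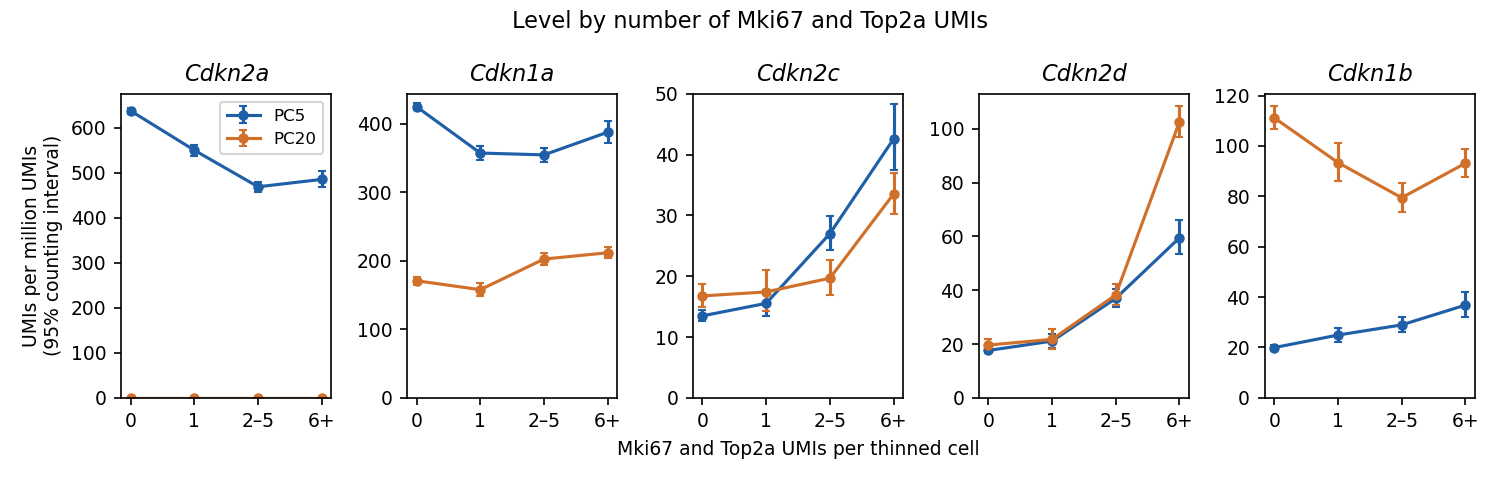
CPM of 5 of the genes in thinned cells grouped by their number of *Mki67* and *Top2a* UMIs, in PC5 (blue) and PC20 (orange), with 95% counting intervals. *Cdkn2d* climbs to 103 in PC20 and 59.5 in PC5 in the highest group, while *Cdkn2a* in PC5 is 637 in the lowest group and 485 in the highest.

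Phases of the cycle were then approximated by the 10% of cells of each library with the highest share of UMIs in a panel of 15 replication genes or of 14 mitotic genes. These are ranges of a score and not cell types, and 331 PC5 and 254 PC20 cells lay within 10% of the replication threshold and 337 and 104 of the mitotic one. In the top mitotic cells *Cdkn2d* was at 159 CPM (154–164) in PC20, a log2 ratio over the other cells of 2.24 (2.18–2.30), and at 54.1 (51.4–56.9) in PC5, a log2 ratio of 1.37 (1.28–1.46). *Cdkn2c* was higher in them by log2 ratios of 1.60 in PC20 and 1.19 in PC5, and *Cdkn1b* by 0.50 and 0.86. For *Cdkn1b* in PC20 this ratio was 0.21 (0.16–0.26) when the 20% of cells highest in the panel were taken.

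The other cells of PC20 were to a larger share dividing-marker cells than those of PC5. Each ratio was therefore also taken, after the data had been seen, for the top cells that had a *Mki67* or *Top2a* UMI over the cells outside the top that had none. Among the top replication cells *Cdkn1b* was at 57.1 CPM (53.6–60.8) in those of PC20, lower than in the other cells by a log2 ratio of -0.71 (-0.81 to -0.62), and at 26.8 (24.8–28.9) in those of PC5, with a log2 ratio of 0.23 (0.11–0.35). Over cells without such a UMI the ratios were -0.91 (-1.02 to -0.81) and 0.49 (0.36–0.62), with the same signs. *Cdkn2c* was higher by a log2 ratio of 0.93 (0.81–1.04) in the replication cells of PC5 and of 0.15 (-0.01 to 0.29) in those of PC20, where the 20% of cells highest in the panel gave 0.23 (0.12–0.34). Over cells without such a UMI the *Cdkn2c* ratio was 1.36 in PC5 and 0.72 (0.53–0.91) in PC20. *Cdkn2d* had 0.43 (0.32–0.54) in PC5 and -0.07 (-0.17 to 0.04) in PC20, and its PC20 ratio turned to 0.32 (0.25–0.39) with the top 20%. Over cells without such a UMI *Cdkn2d* was higher in the replication cells of both, with 0.93 (0.81–1.06) in PC5 and 1.47 (1.31–1.62) in PC20. The order of the passages for *Cdkn2d* thus depended on the cells compared with. *Cdkn2a* and *Cdkn2b* were lower in the replication cells of PC5, by log2 ratios of -0.40 and -0.48. In the mitotic cells *Cdkn2b* had -0.06 (-0.13 to 0.01), against -0.14 (-0.20 to -0.09) with the top 20% and -0.21 (-0.28 to -0.13) over cells without such a UMI.

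**Figure D5:**
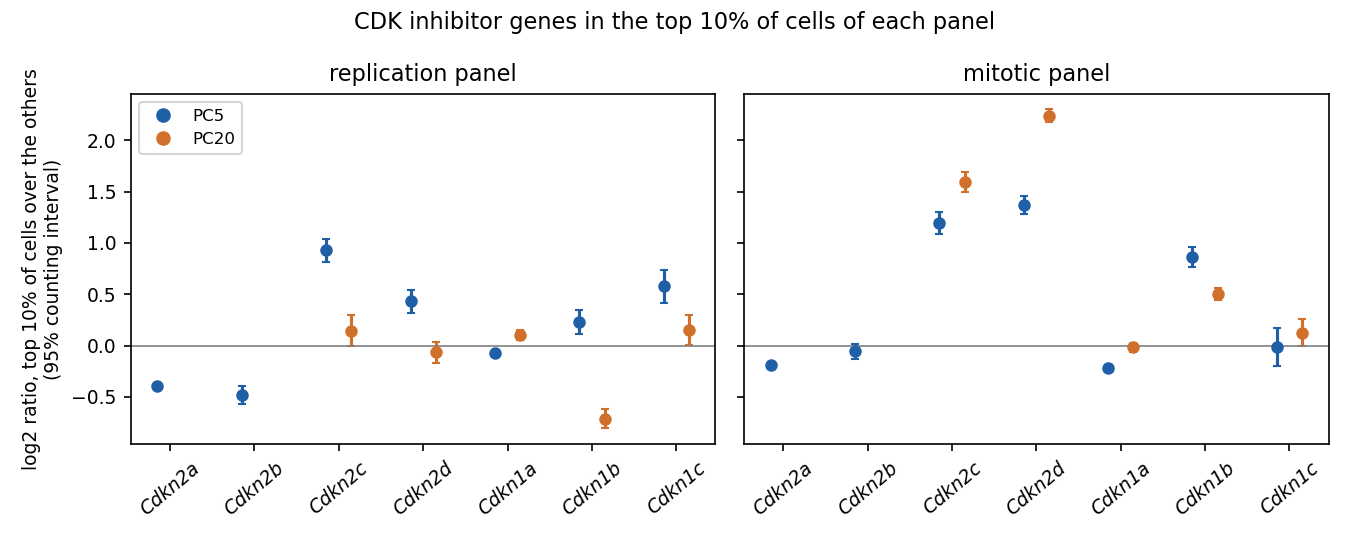
Log2 ratio of each CDK inhibitor gene in the 10% of cells highest in the replication panel (left) and the mitotic panel (right) over the other cells of the library, with 95% counting intervals, for PC5 (blue) and PC20 (orange). *Cdkn2d* reaches 2.24 in the mitotic cells of PC20, and *Cdkn1b* lies at -0.71 in the replication cells of PC20 and at 0.23 in those of PC5.

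The number of inhibitor genes found in single cells was counted as well. At equal depth a PC5 cell held a UMI of a median of 3 of the 7 genes (mean 3.02) and a PC20 cell of 2 (mean 1.87). This count includes *Cdkn2a* and *Cdkn2b*, which 96.6% and 48.7% of the thinned PC5 cells and 0 thinned PC20 cells held. Of the other members, *Cdkn1a* was in a larger share of PC5 cells. *Cdkn2c*, *Cdkn2d*, *Cdkn1b* and *Cdkn1c* were in larger shares of PC20 cells. Cells with none made up 0.0678% of PC5 and 9.57% of PC20. *Cdkn2a* and *Cdkn1a* were found together in 89.6% of PC5 cells, and in 86.8% of the PC5 cells that had a *Mki67* or *Top2a* UMI. Taken alone, they were in 96.6% and 92.8% of PC5 cells, and in 95.9% and 90.7% of those with such a UMI. With each gene so widely detected, the joint shares are not read as a link between them. Dividing-marker cells thus mostly held both inhibitor RNAs at passage 5. In PC20 66.7% of cells held *Cdkn1a* without *Cdkn2a* and 33.3% held neither.

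The genes whose counts went most closely with each member were named by Pearson's *r* over cells of a library, on log-scaled UMIs. These are descriptions, since the cells share a library and their depth and the median *r* over genes was between -0.01 and 0.02. For *Cdkn2b* in PC5 the closest gene was *Cdkn2a* (*r* = 0.31, 9950 cells), ahead of *Thbs2* (0.19). For *Cdkn2a* it was *Cdkn2b* by a narrow margin over *Fam162a* (0.31), *Mif* (0.30) and *Gm42418* (0.30), and *Gm42418* came first in cells without a *Mki67* or *Top2a* UMI (0.32) and *Ccdc3* passed *Cdkn2b* in thinned cells (0.26 against 0.24). For *Cdkn1a* the closest in PC5 were *Mdm2* (0.35), *Trp53inp1* (0.33) and *Ccng1* (0.28), and in PC20, over 4749 cells, *Phlda3* (0.51), *Mdm2* (0.46) and *Ccng1* (0.43), all of them known p53 targets. The same 5 closest genes of *Cdkn1a* were found in cells without a *Mki67* or *Top2a* UMI alone, in both libraries.

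*Cdkn2d* in PC20 went with the mitotic spindle and kinetochore genes *Nusap1* (0.64), *Prc1* (0.63) and *Cenpf* (0.62), and in PC5 with *Top2a* and *Prc1* (0.29 each). *Cdkn2c* in PC20 was closest to *Cdkn2d* by a narrow margin over *Hmgb2* (0.3251 against 0.3245), and in PC5 to *Top2a* (0.24). In thinned PC20 cells *Hmgb2* passed *Cdkn2d* (0.20 against 0.17). In PC20 cells without a *Mki67* or *Top2a* UMI *Tsc22d3* came first (0.43), with *Cdkn2d* at 0.14. *Cdkn1b* in PC20 went with *Bhlhe40*, *Mcl1* and *Sox9* (0.45 each) and with *Nfkbia* (0.44), of which *Bhlhe40* and *Sox9* encode transcription factors, *Mcl1* a survival protein and *Nfkbia* an inhibitor of NF-κB. In PC5 its highest *r* was 0.15, as was that of *Cdkn1c*, with the imprinted RNA *H19*. *Cdkn1b* had a mean of 0.522 UMIs per kept cell in PC5 and 3.63 in PC20, and *Cdkn2d* 0.561 and 1.96. Fewer UMIs can lower *r*, and that of *Cdkn1b* with *Bhlhe40* was 0.31 in thinned PC20 cells. Values of *r* are therefore not compared between passages. In cells without a *Mki67* or *Top2a* UMI, 0 of the 5 closest genes of *Cdkn2c* or of *Cdkn2d* stayed among the closest 5, in either library. The same held for *Cdkn1b* in PC5. The *r* of *Cdkn2d* with *Nusap1* in PC20 went from 0.64 to 0.12 there. *Top2a*, and *Mki67*, which is among the 5 closest of *Cdkn1b* in PC5, are at 0 in this class by definition. Other genes of dividing cells were also much lower in it, such as *Cenpf* in PC20. It was at 254 CPM in cells with and 3.93 CPM in cells without a *Mki67* or *Top2a* UMI. A fall of *r* with such genes was thus largely fixed by the split, and no conclusion is drawn from it.

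The targets of the inhibitors also differed between passages. Of 8 G1 cyclins and CDKs 6 were at least 1.5-fold higher in PC5, among them *Ccnd2* (1197 against 208 CPM), *Ccnd3* (240 against 31.5 CPM) and *Ccne1* (22.0 against 1.94 CPM). *Cdk6* was higher in PC20 (27.9 against 10.8 CPM), and *Cdk4* was at 167 and 178 CPM. Of 10 expressed RB and E2F genes, *E2f6* and *E2f8* were higher in PC5, *Rbl1* was higher in PC20 and 7 differed by less. Of *Cdk1* and its 3 cyclins 3 were higher in PC20, with *Cdk1* at 98.0 against 26.0 CPM, as were 12 of 14 mitotic and 9 of 15 replication genes, with 0 of either panel higher in PC5. These counts are over all cells, and PC20 had more dividing-marker cells. In cells without a *Mki67* or *Top2a* UMI the log2 ratio of PC5 over PC20 was -0.99 for *Cdk1* but 0.51 for *Ccna2* and 1.06 for *Ccnb1*. Over all cells *Ccna2* and *Ccnb1* stood at -1.35 and -0.53. This class was shallower in PC5, with medians of 19195 UMIs against 26024 in PC20, so dividing cells could be missed more easily there. The part of depth in these ratios was not tested.

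The p53 list did not move as 1 with *Cdkn1a*. *Trp53* was at 106 CPM in PC5 and 104 in PC20. Of 19 genes, 9 were at least 1.5-fold higher in PC5, such as *Ccng1* (368 against 149 CPM) and *Mdm2* (218 against 132 CPM). *Gadd45a* (254 against 12.6 CPM) and *Plk2* (212 against 57.3 CPM), stress-response genes of the list, were higher in PC20, and 8 differed by less. Of 11 expressed genes associated with senescence 6 were higher in PC5. These included the secreted factors *Ccl2* (302 against 8.58 CPM), *Il6* (6.24 against 0.330 CPM) and *Igfbp7* (207 against 7.14 CPM). The chromatin protein gene *Hmgb2* (409 against 106 CPM) was higher in PC20. The counts for the lists stand beside the backgrounds of 27.8% and 30.1% given above.

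Marker genes moved between the libraries as well. Of the 5 pericyte markers, *Pdgfrb* was at 44.6 CPM in PC5 and 5.43 in PC20, *Anpep* was at 1.93 and 3.00 CPM, *Rgs5* had 405 and 0 UMIs and *Abcc9* 1 UMI in each, and the list summed to 53.9 and 8.53 CPM. The 4 fibroblast markers summed to 1302 and 101 CPM, mostly from *Col3a1* at 1158 and 101 CPM. *Pdgfra* was at 88.6 and 0.131 CPM, *Dcn* at 51.3 and 0.167 CPM, and *Lum* had 796 and 0 UMIs. The 4 endothelial markers summed to 181 and 0.246 CPM, in PC5 mostly from *Cdh5*, at 168 and 0.0262 CPM. *Kdr* was at 12.8 and 0.0680 CPM, *Pecam1* at 0.542 and 0.110 CPM and *Cldn5* at 0.0628 and 0.0419 CPM. The 3 smooth muscle markers summed to 283 and 49.5 CPM. *Tagln* was at 219 and 0.230 CPM, while *Acta2* was at 62.8 and 49.2 CPM and *Myh11* at 0.206 and 0.0680 CPM. The 2 astrocyte markers summed to 151 and 229 CPM but went opposite ways. *Slc4a4* was at 143 and 229 CPM and *Aldh1l1* at 7.35 and 0.0262 CPM. Of the 3 microglial markers, *Cd48* and *Adgre1* were at 0 in both libraries. The part of these differences and of the depth per cell in the members' passage differences was not tested. The members other than *Cdkn2a* and *Cdkn2b* on the chromosomes of GRCm38 are *Cdkn2c* at chr4:109660876-109667189, *Cdkn2d* at chr9:21288410-21291407, *Cdkn1a* at chr17:29090976-29100727, *Cdkn1b* at chr6:134920401-134925513 and *Cdkn1c* at chr7:143458339-143461050, all of them protein-coding.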

How the data were processed

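Single cell libraries of cultured mouse brain PCs, 1 at passage 5 and 1 at passage 20, were grouped by passage as the labels give it. The authors deposited UMI counts for each gene in each barcode, made with CellRanger 5.0.1 on the mm10 mouse genome from 10x 3′ libraries and not normalized. Cells of the study other than these cultures were not analysed here.

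Cells were kept by the paper's filter. No doublet caller was run. CPM, log2 ratios without a pseudocount, exact Poisson, Clopper-Pearson and conditional binomial intervals at the 95% level, thinning and correlations were computed with Python 3.11.15, numpy 2.4.6 and scipy 1.17.1. No test across samples was possible with 1 library per passage, so genes were counted by a 1.5-fold difference, given where the 2 libraries or classes do not both hold 3 or fewer UMIs. The depth of the kept cells summed to 223054273 UMIs at passage 5 and 191122251 at passage 20. The named genes are the members, genes of lists written from general knowledge, the 5 genes most correlated with a member and its neighbours on the chromosome. The members and lists were chosen with earlier results of these data known, and 1 gene of a list is not reported here. Genes were placed with GENCODE M21 on GRCm38. On simulated libraries all 200 changed genes had the right sign. Their changes were far above 1.5-fold and genes of low counts were left out, so calls near that fold were not checked.

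The alternatives were thinned cells, means over cells, other cell filters, another library size, no deepest 5% of cells, a 2-fold threshold, other splits of dividing cells and a 1% detection minimum. The removal of shared barcodes, a 20% panel cut and correlations in subsets of cells were added after the data were seen.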

Additional observations from a re-analysis of the deposited data

Results flagged for a closer look

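For 3 members the log2 ratio of cells with over cells without a *Mki67* or *Top2a* UMI had opposite signs at the passages, with both counting intervals away from 0. *Cdkn1a* was at -0.26 in PC5 and 0.14 in PC20, *Cdkn1b* at 0.44 and -0.32, and *Cdkn1c* at 0.20 and -0.22. In thinned cells the ratios of *Cdkn1c* were 0.12 (-0.07 to 0.30) and -0.12 (-0.30 to 0.06), so both intervals then crossed 0. Each passage has 1 library, so the difference between passages was not tested, and all 6 ratios were under 1.5-fold.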

How the results depend on the processing

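The counts of members at least 1.5-fold higher in PC5 or in PC20 were 3 each, and 10 alternatives were run for each. At a 2-fold threshold each count went to 2, as *Cdkn1a* (1.96-fold) and *Cdkn2d* (1.95-fold) fell under it. The PC20 count also went to 2 in cells without a *Mki67* or *Top2a* UMI. Under the other alternatives both counts stayed at 3. Of the members higher in cells with a *Mki67* or *Top2a* UMI, the count in PC5 went from 2 to 0 at a 2-fold threshold. In PC20 it went from 2 to 1 with thinned cells, to 1 with means over cells and to 1 at a 2-fold threshold, where *Cdkn2d* was the member left. The passage log2 ratio of *Cdkn2d* changed sign to 0.046 in cells without such a UMI, and its main value was -0.96. In the replication cells of PC20 the ratio of *Cdkn2d* over the other cells turned from -0.07 to 0.32 with the top 20% of cells. The cause of these changes was not tested. No paired analysis was possible because each passage has 1 library. For the same reason leaving out a replicate was not run. Intervals and floors cover counting error only, and PC20 cells were deeper. Cells of high UMI number may hold doublets.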

Other observations

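The nearest protein-coding neighbours of the other members were read in the same way. *Faf1*, 9398 bases from *Cdkn2c*, was at 15.4 CPM in PC5 and 64.4 in PC20. *Kri1*, 440 bases from *Cdkn2d* on the same strand, was at 11.3 and 16.7 CPM. *Srsf3*, a splicing factor gene 47602 bases from *Cdkn1a*, was at 174 and 217 CPM, while *Rab44* on its other side had 1 and 0 UMIs. Next to *Cdkn1b*, *Gpr19* was at 2.27 and 4.66 CPM and *Apold1*, an endothelial stress-response gene, at 15.8 and 3.04 CPM. Next to *Cdkn1c*, *Slc22a18* was at 1.79 and 0.926 CPM and *Kcnq1* had 0 and 1 UMI. The antisense gene *Gm44732* that overlaps *Cdkn1c* had 1 UMI in PC5 and 0 in PC20.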
